A study of Mus musculus with 8 samples.

Results

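Connexins are the subunits of gap junctions, the channels through which touching cells exchange ions and small metabolites. Expression of 6 mouse connexin genes, Gjd2, Gja1, Gja4, Gja5, Gjb1 and Gjb2, was read in whole pancreas, out of 27947 gene names on the array. Array probes were assigned by gene name, or by an older symbol matched through the RefSeq accession, and 10 of the 41174 probes on the array belonged to these genes. Gja5 had 4 probes, Gjb2 had 2 and each other gene had 1. The Gjd2 probe carries the older symbol Gja9 on the array. All 10 probes were well above background on all 8 arrays.

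The samples were 4 Glis3KO2 and 4 WT pancreases from C57BL/6 mice aged 1 week that had been left with their mothers. Glis3KO2 is named in the labels as a Glis3 line without the deleted part, and Glis3 encodes a zinc finger transcription factor. RNA was hybridised to single-colour Agilent arrays, 1 array per sample.

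In mammals a gap junction forms where a hexameric channel in the membrane of a cell docks with its counterpart in the neighbouring cell, and different connexins give channels of different permeability. In rodent islets Gjd2 is the main connexin of beta cells, where it couples their electrical activity and calcium oscillations. In the exocrine pancreas Gjb1 and Gjb2 couple the acinar cells that secrete digestive enzymes. Gja1 is a widespread connexin of mesenchymal and smooth muscle cells, and Gja4 and Gja5 are connexins of the endothelium, most of all in arteries. In bulk tissue, fewer cells of a type and less RNA per cell cannot be told apart.

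What each probe read is shown by the first 30 of its 60 bases, printed for the 3 genes on which the results turn: Gjd2, whose probe was lower in Glis3KO2, Gjb2, whose Glis3KO2 arrays were spread most widely among the genes' brightest probes, and Gja5, whose probes differed in sign. Positions are in mouse build mm7, as the array files give them, and each sequence runs 5′ to 3′ as the probe was designed. No annotation of that build was used here, so exon and UTR are not assigned.
Gjd2, chr2:113751076-113751135, minus strand: cttatgagatggtcatttcactcaccgttg
Gjb2, brighter probe, chr14:51966511-51966570, minus strand: caagttgaaccattaccactatgccttatg
Gjb2, dimmer probe, chr14:51967949-51968008, minus strand: tttacatcatgtacaatggcttcttcatgc
Gja5, brightest probe, chr3:96948177-96948236, plus strand: tgtccccagtggccctgtgtgttgacagag
Gja5, RefSeq probe A, chr3:96925409-96925468, plus strand: ccgacactggcactaagactctctgttctg
Gja5, RefSeq probe B, chr3:96923028-96923087, plus strand: agatgggaagattgtcctccagggcaccct
Gja5, dimmest probe, chr3:98283183-98283242, plus strand: tgtttctttaagtcaatgctaatacaaaca
Both Gjb2 probes carry RefSeq accessions and start 1438 bases apart. For Gja5, probes A and B carry RefSeq accessions, whereas the brightest lies 22.768 kb and the dimmest 1357.774 kb from the nearest of those probes.

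On each array 76.1% to 86.5% of the probes exceeded background, and before scaling the 75th percentile of signal ranged over 460 to 694. The 4 Glis3KO2 arrays shared a slide and the 4 WT arrays shared a different slide, and for every value below an effect of slide cannot be told apart from that of genotype. Glis3KO2 replicates 3 and 4 stood apart on the first principal component, with scores of 39.8 and 59.0 against -26.0 to 0.46 for the other 6 arrays. Xist, the RNA that coats the silenced X chromosome in female cells, was high on Glis3KO2 replicates 1, 3 and 4 and on WT replicate 4. Litters are not given in the labels, and the p-values reflect only how much these particular samples varied. Glis3 was read by 1 probe, well above background on 0 Glis3KO2 arrays and on 3 WT arrays, and was too dim to be tested. Its log2 level averaged -6.15 ± 0.21 in Glis3KO2 and -5.58 ± 0.33 in WT (SD, n = 4 each), with 1 WT array inside the Glis3KO2 range. With dim Glis3KO2 signals raised to the lowest signal well above background on their array, mean Glis3 was 1.11-fold lower in Glis3KO2. That value has no interval and was not tested. The location of the probe relative to the deleted part is not given in the sources used here, so the probe does not check the genotype.

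The question the design poses is how connexin expression differs in Glis3KO2 pancreas. Values are log2 signals relative to the 75th percentile of their own array, so that 0 is the level of a rather bright probe and negative values lie below it. Levels are compared between arrays, for the same probe or for the same set of probes combined. A gap in level between different probes is not read as a difference in abundance. Differences are Glis3KO2 minus WT, tested with limma across 33238 probes with Benjamini-Hochberg adjustment at an adjusted p of 0.05. Of the 33238 probes, 85 passed (0.256%), 58 lower in Glis3KO2 (0.174%) and 27 higher (0.0812%). An unadjusted p below 0.05 was found for 2983 of the 33238 probes (8.97%), the background for the counts of unadjusted p given below. Of the 6 connexin genes read at their brightest probe, 1 passed, Gjd2, and it was lower in Glis3KO2. The median log2 difference of the 6 genes was 0.05, and that of all tested probes was -0.01. The Gja5 value in that median, 0.38, is from a probe without a RefSeq accession. Both Gja5 probes with a RefSeq accession had log2 differences below 0 (-0.19 and -0.09). Non-overlapping groups, in either direction, were found for 1 of the 6 genes and for 5.2% of all tested probes.

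**Figure D1:**
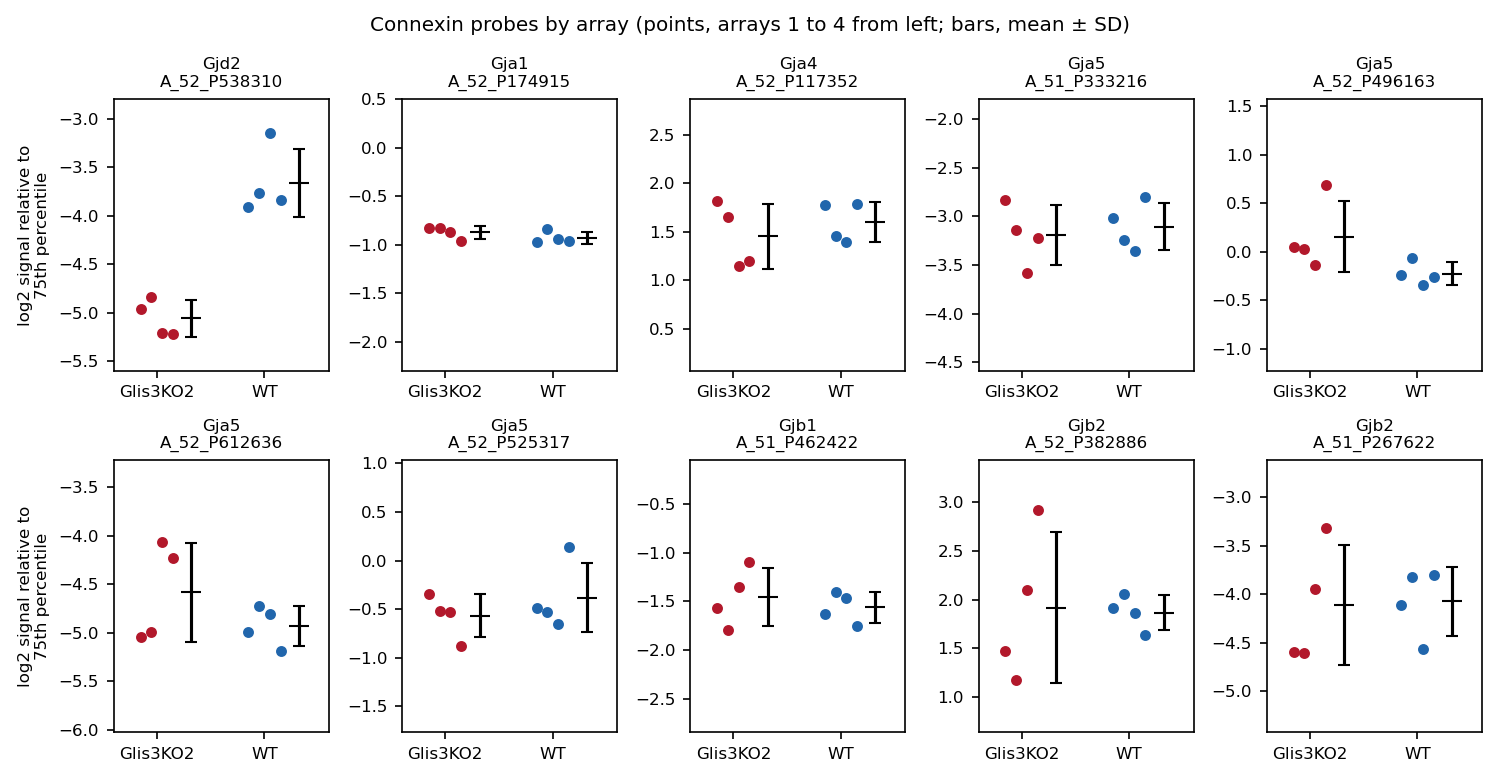
Log2 signal on the scale of the 75th percentile (vertical axis) for the 10 connexin probes, 1 panel each, with Glis3KO2 arrays on the left and WT arrays on the right, and means ± SD (n = 4 each) as bars. Each panel spans the same number of log2 units around its own level. The groups are separated for Gjd2, and the Gjb2 points of Glis3KO2 lie on both sides of the WT points.

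Gjd2, the beta cell connexin, fell in Glis3KO2 pancreas. Its log2 level was -4.96, -4.84, -5.21 and -5.22 on Glis3KO2 replicates 1 to 4 and -3.91, -3.77, -3.15 and -3.84 on WT replicates 1 to 4. Every Glis3KO2 array was below every WT array, and among WT arrays replicate 3 was the highest. Groups failed to overlap in that direction for 3.35% of all tested probes, and in the other direction for 1.86%. The means were -5.06 ± 0.19 in Glis3KO2 and -3.67 ± 0.35 in WT (SD, n = 4 each), a log2 difference of -1.39 (SE 0.18, 95% interval -1.80 to -0.98, limma adjusted p = 0.0235). As a fold, Gjd2 was 2.62-fold lower in Glis3KO2, with an interval of 1.97 to 3.48.

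The probe was dim. Its processed signal, in scanner units before scaling, was 14.8, 19.7, 18.7 and 14.7 on the Glis3KO2 arrays and 33.0, 33.7, 59.3 and 35.3 on the WT arrays. After normexp background correction, which adds an offset of 50 that exceeds all but 1 of these signals, the log2 difference shrank to -0.52 (limma adjusted p = 0.111). The call was also lost without any filter on dim probes (limma adjusted p = 0.0504), with Xist level as a covariate (log2 difference -1.25, limma adjusted p = 0.137), and when WT replicate 2, WT replicate 4, Glis3KO2 replicate 3 or Glis3KO2 replicate 4 was left out (limma adjusted p = 0.0623, 0.0742, 0.0959 and 0.0858, in that order). Without Glis3KO2 replicates 3 and 4 together the log2 difference was -1.24 (limma adjusted p = 0.247).

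Most markers of beta cells moved with Gjd2. A gene is counted as fallen or risen only if it passed the test. Of 13 beta cell genes tested, 7 fell and 0 rose: Ins1 and Ins2, which encode insulin, Slc2a2, through which rodent beta cells take up glucose, G6pc2, an islet glucose-6-phosphatase, Slc30a8, the zinc transporter of insulin granules, Nkx6-1, a beta cell transcription factor, and Ucn3, which marks mature beta cells. Ins2, Ins1, Slc2a2 and Ucn3 had the largest log2 differences, at -3.70, -2.54, -2.26 and -1.92 (limma adjusted p = 5.36e-04, 0.00132, 0.00349 and 0.0434). The median log2 difference of the 13 genes was -1.13, beside -0.01 for all tested probes. Of the 13, 11 had a negative and 2 a positive log2 difference, the highest 0.66. All 13 beta cell genes were detected, so none was at 0, and their summed level, in multiples of the array's 75th percentile, was 201 to 410 on Glis3KO2 arrays and 744 to 918 on WT arrays. The beta cell count was 3 or 4 without WT replicate 1, 2, 3 or 4 or without Glis3KO2 replicate 2, 3 or 4. It was 3 with Xist level as a covariate, 4 without a filter on dim probes, and 2 without Glis3KO2 replicates 3 and 4, when Ins1 and Ins2 passed.

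Genes of the other islet cells also moved, so the fall was not shown to be particular to beta cells. Of 9 such genes, 2 fell and 0 rose: Ppy, which encodes pancreatic polypeptide, and Irx2, a transcription factor of alpha cells (log2 differences -2.01 and -0.88, limma adjusted p = 0.00648 and 0.0416). Irx2 lost its call with all its tested probes averaged (log2 difference -0.60, limma adjusted p = 0.245). It also lost its call with normexp correction (-0.57, limma adjusted p = 0.0619). Of the 9 genes, 7 had a negative log2 difference and 6 an unadjusted p below 0.05, with a median log2 difference of -0.46. Their summed level was 130 to 206 times the 75th percentile on Glis3KO2 arrays and 216 to 242 times on WT arrays. The count was 0 with Xist level as a covariate or without Glis3KO2 replicates 3 and 4. It was 1, with Ppy passing, without any filter on dim probes or without WT replicate 1, 2, 3 or 4 or Glis3KO2 replicate 2, 3 or 4, and it was 3 without Glis3KO2 replicate 1.

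Set against the mean of the 13 beta cell genes on the same array, Gjd2 lay at -5.69 ± 0.18 in Glis3KO2 and -5.47 ± 0.25 in WT (SD, n = 4 each), in log2 units. The difference of -0.22 had a 2-sided p of 0.229 in an exact permutation test over 70 regroupings of the arrays. After Benjamini-Hochberg adjustment over the 6 connexin genes this p was 0.457, and the smallest unadjusted p possible was 0.0286. A gene that alone reached this smallest p could not pass after adjustment over the 6 genes. The adjusted permutation values, here and below, therefore cannot decide whether a single gene differed from its list. The array values were -5.92, -5.54, -5.75 and -5.54 in Glis3KO2 and -5.53, -5.38, -5.18 and -5.78 in WT, and the groups overlapped. After normexp correction this relative difference was 0.47, with the opposite sign (exact permutation p = 0.171 after adjustment over the 6 genes). The offset of that correction exceeds most Gjd2 signals, as given above. With 4 arrays per genotype, these values did not settle whether Gjd2 differed from the beta cell genes.

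**Figure D2:**
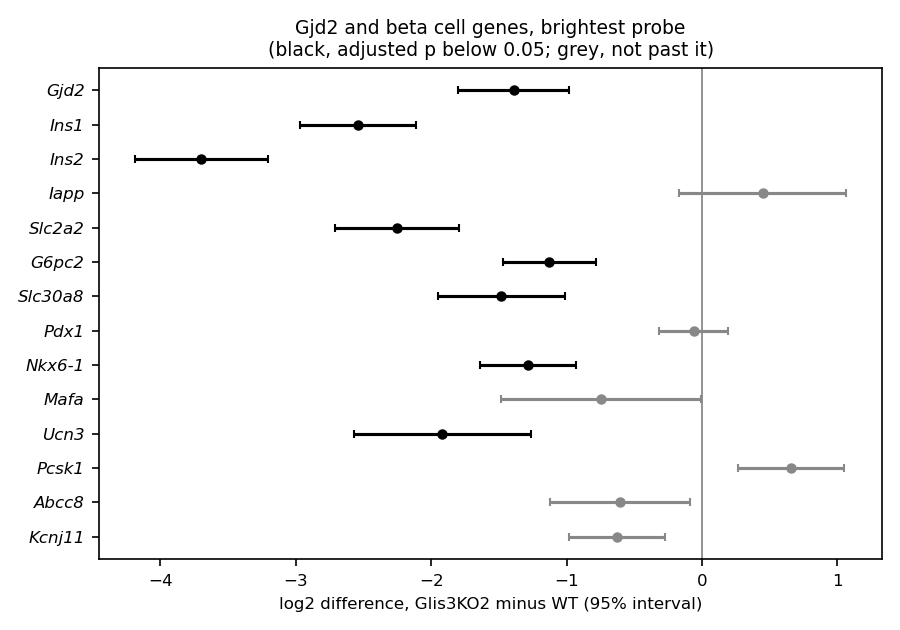
Log2 difference, Glis3KO2 minus WT, with its 95% interval (horizontal axis) for Gjd2 in the top row and the 13 beta cell genes under it, each at its brightest probe, 4 arrays per genotype. Black marks genes with a limma adjusted p below 0.05. Gjd2, at -1.39, lies among the 7 beta cell genes that fell.

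The genes whose pattern over the 8 arrays was most like that of Gjd2 were ranked by the root mean square difference in log2 level, after each gene was centred on its own mean. Among 16391 genes, the 5 closest were A530058N18Rik (0.18 log2 units), Vdr (0.20), Shisal2b (0.20), Nkx6-1 (0.21) and Rims3 (0.23), and the median gene was at 0.77. Vdr encodes the vitamin D receptor, and Rims3 a protein that regulates synaptic exocytosis. Their log2 differences lay between -1.36 for Vdr (limma adjusted p = 0.00515) and -1.14 for A530058N18Rik (limma adjusted p = 0.0868). This ranking uses the genotype difference itself and is a description.

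Gjb1 and Gjb2, the acinar connexins, did not pass the test. Gjb1, which lies on the X chromosome, had log2 levels of -1.57, -1.80, -1.36 and -1.10 on Glis3KO2 arrays and -1.63, -1.40, -1.47 and -1.75 on WT arrays. The groups overlapped, and the 2 highest values were those of Glis3KO2 replicates 3 and 4. The log2 difference was 0.11 (SE 0.16, 95% interval -0.26 to 0.47, limma adjusted p = 0.899), 0.06 with Xist level as a covariate, and -0.12 without Glis3KO2 replicates 3 and 4. Without Glis3KO2 replicate 4 alone it was -0.01.

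Gjb2 had nearly equal means and, most of all at its brighter probe, unequal spreads. The spreads were not tested. The brighter probe read 1.47, 1.17, 2.10 and 2.92 on Glis3KO2 replicates 1 to 4 and 1.92, 2.06, 1.86 and 1.63 on WT replicates 1 to 4, in log2 relative to the 75th percentile. Glis3KO2 replicates 1 and 2 were below every WT array, and Glis3KO2 replicates 3 and 4 were above every WT array. The mean was 1.92 ± 0.78 in Glis3KO2 and 1.87 ± 0.18 in WT (SD, n = 4 each), a log2 difference of 0.05 (SE 0.34, 95% interval -0.71 to 0.81, limma adjusted p = 0.984). That interval spans changes of 1.63-fold lower to 1.75-fold higher in Glis3KO2.

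The dimmer Gjb2 probe put each Glis3KO2 array on the same side of the WT mean as the brighter probe did. It read -4.60, -4.60, -3.95 and -3.32 on Glis3KO2 arrays and -4.11, -3.82, -4.57 and -3.80 on WT arrays. The SD was 0.62 in Glis3KO2 and 0.36 in WT (n = 4 each), with WT replicate 3 nearly as low as Glis3KO2 replicates 1 and 2. The log2 difference was -0.04 (limma adjusted p = 0.986). Glis3KO2 replicates 3 and 4, the high arrays, are those that stood apart on the first principal component, and the part of that component in the spread of Gjb2 was not tested. The difference at the brighter probe was -0.55 without Glis3KO2 replicates 3 and 4 (limma adjusted p = 0.504) and 0.20 or 0.30 without Glis3KO2 replicate 1 or 2. It was -0.29 without Glis3KO2 replicate 4, -0.01 without Glis3KO2 replicate 3, -0.03 without WT replicate 4 and -0.11 with Xist level as a covariate.

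**Figure D3:**
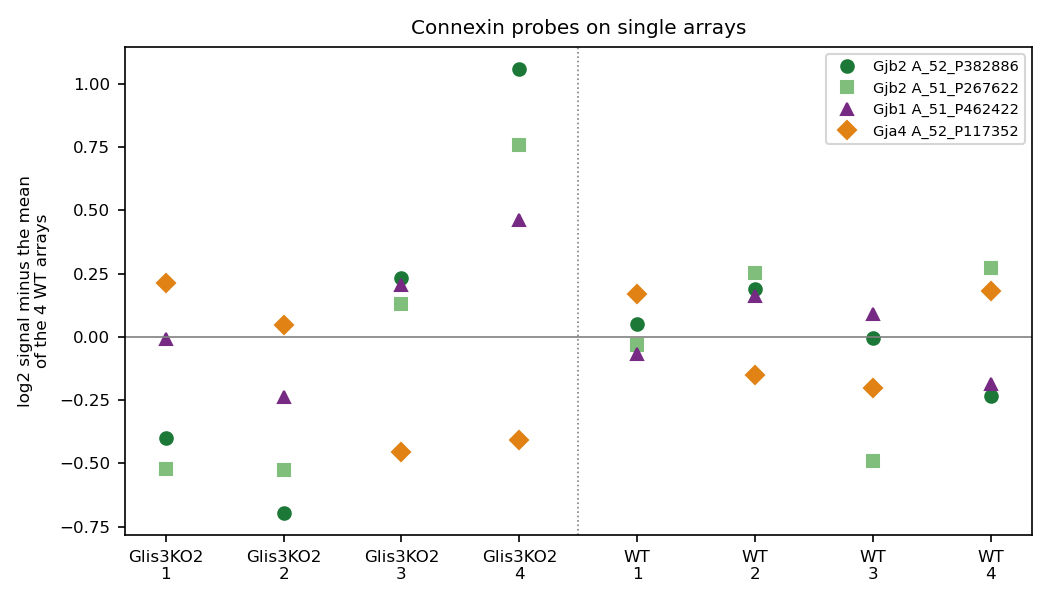
Log2 signal minus the mean of the 4 WT arrays (vertical axis) on each of the 8 arrays, with Glis3KO2 arrays left of the dotted line and WT arrays right of it, for both Gjb2 probes, Gjb1 and Gja4. Both Gjb2 probes are below the WT mean on Glis3KO2 replicates 1 and 2 and above it on replicates 3 and 4, and Gja4 runs the other way on these arrays.

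Acinar markers were read beside these genes. Of 13 acinar genes, 0 passed (limma) and 1 had an unadjusted p below 0.05, with a median log2 difference of -0.13. The log2 difference was negative for 11 of the 13. With quantile normalization it was negative for 5, and the median was 0.02. Cpa1, a carboxypeptidase precursor of pancreatic juice, had a log2 difference of -0.13 (limma adjusted p = 0.792), with means of 8.85 ± 0.18 in Glis3KO2 and 8.98 ± 0.08 in WT (SD, n = 4 each). The summed acinar level was 3910 to 5170 times the 75th percentile on Glis3KO2 arrays and 4561 to 5420 times on WT arrays. Relative to the mean of the 13 acinar genes, Gjb1 differed by 0.21 (exact permutation p = 0.2, 0.457 adjusted over the 6 genes). Gjb2 differed by 0.15 on the same scale (exact permutation p = 0.714, 0.714 adjusted). Without Glis3KO2 replicates 3 and 4 these relative differences were -0.03 for Gjb1 and -0.46 for Gjb2.

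Gja1 had the tightest values of the 6 genes. Its log2 level was -0.83, -0.83, -0.87 and -0.96 on Glis3KO2 arrays and -0.97, -0.84, -0.93 and -0.96 on WT arrays. The groups overlapped, with a log2 difference of 0.06 (SE 0.09, 95% interval -0.15 to 0.26, limma adjusted p = 0.909). The probe was spotted 10 times per array, and the SD between spots of an array was 0.05 to 0.13 log2 units. As a fold the interval spans 1.11-fold lower to 1.20-fold higher in Glis3KO2. Of 12 mesenchymal genes, 0 passed (limma) and 1 had an unadjusted p below 0.05. The log2 difference was positive for 11 of the 12, with a median of 0.13. Gja1 relative to their mean differed by -0.06 (exact permutation p = 0.629, 0.714 adjusted over the 6 genes).

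Gja4, an endothelial connexin, had log2 levels of 1.81, 1.65, 1.15 and 1.19 on Glis3KO2 arrays and 1.77, 1.45, 1.40 and 1.78 on WT arrays. Glis3KO2 replicates 3 and 4 were the lowest of the 8 arrays and Glis3KO2 replicate 1 the highest, so the groups overlapped. The log2 difference was -0.15 (SE 0.18, 95% interval -0.56 to 0.25, limma adjusted p = 0.860), and 0.13 without Glis3KO2 replicates 3 and 4.

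The 4 Gja5 probes did not move together. The brightest read 0.05, 0.03, -0.14 and 0.69 on Glis3KO2 arrays and -0.24, -0.06, -0.34 and -0.26 on WT arrays, a log2 difference of 0.38 (SE 0.18, 95% interval -0.02 to 0.78, limma adjusted p = 0.576). Glis3KO2 replicate 4 was the highest, and without it the log2 difference was 0.20. The dimmest probe had a log2 difference of 0.35 (95% interval -0.19 to 0.88), with values of -5.05, -4.99, -4.06 and -4.23 on Glis3KO2 arrays and -4.99, -4.73, -4.81 and -5.18 on WT arrays. These probes carry the Gja5 name on the array but no RefSeq accession.

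Both Gja5 probes with a RefSeq accession had log2 differences below 0. Probe A read -0.35, -0.52, -0.53 and -0.87 on Glis3KO2 arrays and -0.48, -0.53, -0.65 and 0.14 on WT arrays, a log2 difference of -0.19 (95% interval -0.61 to 0.24, limma adjusted p = 0.827). Probe B read -2.83, -3.14, -3.58 and -3.22 on Glis3KO2 arrays and -3.02, -3.24, -3.35 and -2.80 on WT arrays, a log2 difference of -0.09 (95% interval -0.49 to 0.32, limma adjusted p = 0.930). None of the 4 Gja5 probes passed the test, and the groups overlapped at each, so these arrays gave no direction for the gene. With all 4 probes averaged the log2 difference was 0.11 (limma adjusted p = 0.772).

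Endothelial markers were read beside Gja4 and Gja5. All 10 had a negative log2 difference, with a median of -0.20. Of the 10, 0 passed (limma), and 2 had an unadjusted p below 0.05. Their summed level was 35.3 to 44.5 times the 75th percentile on Glis3KO2 arrays and 43.3 to 53.1 times on WT arrays. Without Glis3KO2 replicates 3 and 4 the median was -0.04, and 8 of 10 were negative. Relative to the mean of these 10 genes, Gja4 differed by 0.07 (exact permutation p = 0.6, 0.714 adjusted over the 6 connexin genes). The brightest Gja5 probe differed by 0.61 (exact permutation p = 0.0571, 0.343 adjusted), a value that rests on a probe without a RefSeq accession. Of 5 arterial genes, 0 passed (limma) and 0 had an unadjusted p below 0.05, with a median log2 difference of -0.15.

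Of 11 further connexin genes, 10 had a probe on the array and 9 were bright enough to be tested. Of these 9, 0 passed (limma) and 1 had an unadjusted p below 0.05. Their log2 differences lay between -0.74 for Gjc3, a glial connexin, and 0.74 for Gjb6, an epithelial and astrocyte connexin, both named after their values were seen. Gjc1, a connexin of smooth muscle and the cardiac conduction system, differed by less than 0.01 in size (limma adjusted p = 1.000). Panx1, a pannexin that forms channels in single membranes, had a log2 difference of 0.13 (limma adjusted p = 0.812). Gja6 and Panx3 were too dim to be tested.

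**Figure D4:**
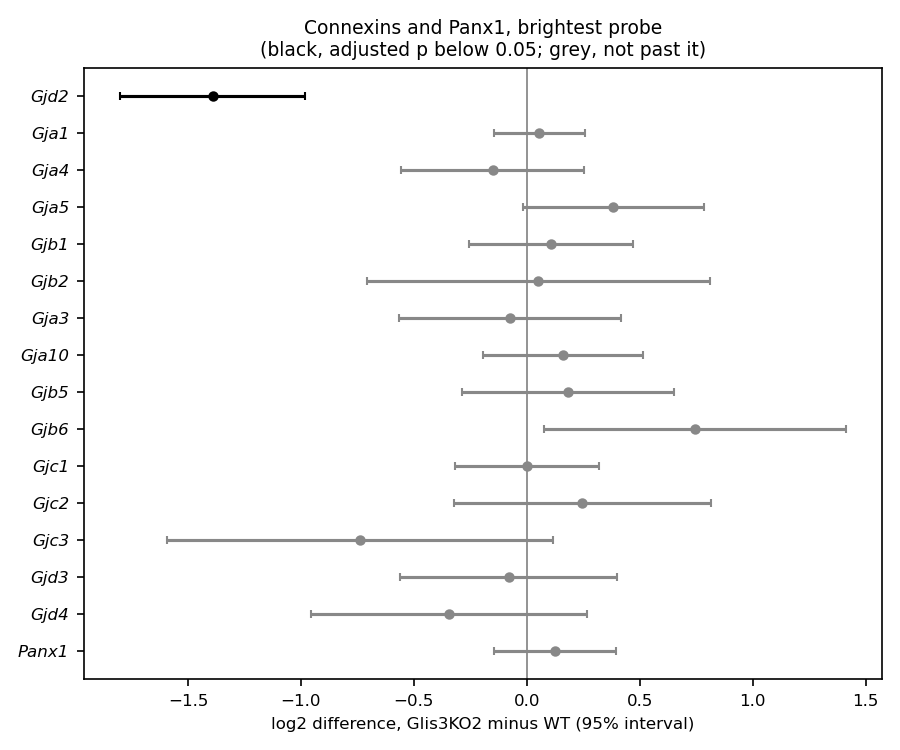
Log2 difference, Glis3KO2 minus WT, with its 95% interval (horizontal axis) for the 6 connexin genes in the top rows, 9 other tested connexins and Panx1, each at its brightest probe, 4 arrays per genotype. Black marks genes with a limma adjusted p below 0.05. Gjd2 lies at -1.39, and the intervals are not adjusted for the number of genes. The Gja5 row is a probe without a RefSeq accession.

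Genes that assemble, anchor or regulate gap junctions were also read. Of 14 such genes, 0 passed (limma) and 2 had an unadjusted p below 0.05, with a median log2 difference of 0.06. Tjp1, the scaffold protein that binds connexin tails, had a log2 difference of 0.09 (limma adjusted p = 0.887) and of -0.14 at its dimmer probe, and Cdh1, the epithelial cadherin, 0.07 (limma adjusted p = 0.922). Rest, a repressor of neuronal genes that is known to silence Gjd2 outside neurons and beta cells, was read by 3 probes that differed in sign. Its brightest probe, which carries no RefSeq accession, had a log2 difference of 0.02 (limma adjusted p = 0.988), and its RefSeq probes had -0.44 and -0.11 (limma adjusted p = 0.529 and 0.842). Of 3 further genes of islet cell contact, Ncam1, Epha5 and Efna5, 0 passed (limma) and 0 had an unadjusted p below 0.05.

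For the other 5 connexin genes the patterns most like each over the 8 arrays, by the same measure, were those of Pgd and Trp53bp1 for Gja1 (0.04 log2 units each), Il6ra and Adgrv1 for Gja4 (0.07 and 0.08), Cyp2c70 and Olfr355 for the brightest Gja5 probe (0.07 and 0.09), Tmed6 and Serp1 for Gjb1 (0.05 and 0.06), and Slc7a3 and Galnt3 for the brighter Gjb2 probe (0.16 and 0.18). The median gene was 0.19 from Gja1, 0.31 from Gja4, 0.34 from Gja5, 0.28 from Gjb1 and 0.53 from Gjb2. The small distances of Gja1 go with its small variation over arrays (SD 0.06).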

How the data were processed

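RNA (500 ng, Cy3, per the labels' protocols) was hybridised to Agilent mouse arrays. The deposited values are linear intensity values, background-subtracted and unscaled, from Agilent Feature Extraction 9.5.3.1 per the file headers (9.5 per the submitters' processing notes). The deposited series table held the same intensity values.

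Outlier spots (56 to 130 per array) were left out, log2 values were centred on the 75th percentile of 43379 non-control spots, and spots of a probe were averaged. Probes well above background on at least 4 of 8 arrays were tested with limma 3.58.1 in R 4.3.3 (genotype term, 2-sided), after a check on simulated data. RefSeq accessions were given for 25510 probes, of which 22951 were found in the gene table (assembly GRCm38.p6) and named from it. A gene was read at its brightest probe. Spike-ins had a median log2 difference of -0.28, and 9 of 10 spike-in probes were lower in Glis3KO2. That shift is larger in size than the acinar and endothelial medians of -0.13 and -0.20, and its cause was not tested. Deviations of same-numbered arrays did not settle whether the replicate numbers pair the samples. Some genes of the lists are not reported here. The members and lists were chosen with earlier results of these data known. The rule for named genes took all members, list genes past the threshold (up to 4 per list), Ins2, Cpa1, Cdh1, Tjp1, Panx1, Gjc1, Rest, Glis3 and the nearest patterns. G6pc2, Slc30a8, Gjb6, Gjc3, Gja6, Panx3, Ncam1, Epha5 and Efna5 were named outside it, after values were seen. Of 9 duct, 9 nerve and glia and 8 leukocyte genes tested, 0 passed (limma), and 1, 2 and 0 had an unadjusted p below 0.05. Alternatives changed background correction, normalization, filter, covariates, weights, eBayes settings, probe averaging or arrays used. The deposited series table, also counted as an alternative, repeated the main fit. Figures used matplotlib 3.10.9.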

Additional observations from a re-analysis of the deposited data

How the results depend on the processing

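The count of 85 probes past the threshold was 51 with no filter on dim probes, 27 with Xist level as a covariate, 142 with trend and robust eBayes, 11 without Glis3KO2 replicates 3 and 4, and 35 to 96 when single arrays were left out. Whether the replicate numbers pair the samples was not settled. Correlations of same-numbered deviations were 0.13, 0.09, 0.24 and -0.04, beside -0.20 to 0.14 for differently numbered arrays. With the replicate block the count was 15. Gjd2 then kept its log2 difference of -1.39 (limma adjusted p = 0.187), and no other connexin member changed its call. In that fit 3 of 13 beta cell genes and 0 of 9 other islet genes passed (limma). Gjd2 was -0.52 with normexp, -1.25 with Xist, -1.24 without Glis3KO2 replicates 3 and 4, -1.39 but past no threshold without the filter, and -1.47 to -1.22 with single arrays left out. It passed in 11 of 20 alternatives. Among these 11, the deposited series table repeated the main fit. Averaging the probes of a gene left the single Gjd2 probe unchanged. Without Glis3KO2 replicates 3 and 4 the sign turned for Gja4 (0.13), Gjb1 (-0.12), Gjb2 (-0.55), Cdh1 (-0.043), Tjp1 (-0.012) and Gjc1 (0.065), and relative to acinar genes Gjb1 was -0.032 and Gjb2 -0.46. With Xist, Gjb2 was -0.11 and Gjc1 0.040. With single arrays left out, Gjb1 ranged from -0.013 to 0.22, Gjb2 from -0.29 to 0.30, Cdh1 from -0.0072 to 0.16, Gjc1 from -0.11 to 0.064 and Rest from -0.066 to 0.080, and relative to acinar genes Gjb1 from 0.12 to 0.30 and Gjb2 from -0.16 to 0.36. Likewise, Gja1 relative to mesenchymal genes ranged from -0.14 to 0.016, and Gja4 relative to endothelial genes from -0.034 to 0.15. With all probes of a gene averaged, Tjp1 was -0.022, Gjc1 0.017 and Rest -0.18. Gjc1 was 0.026 with scaling to the median and 0.031 with array weights, Cpa1 was 0.0045 with quantile normalization, and Gjd2 relative to beta cell genes was 0.47 with normexp. The cause of these changes was not tested. The log2 difference of Gja1 itself kept its sign and stayed outside the threshold in all 20 alternatives. So did the value read for Gja5, which follows its brightest probe or the mean of its probes, whereas both its RefSeq probes have the opposite sign (-0.19 and -0.09). Slide as a block could not be fitted, because each slide held 1 genotype. Precision is limited by 4 arrays per genotype.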
